A study of Mus musculus with 12 samples.

Results

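The genes described here encode the subunits of the proteasome and the proteins that cap it or help to build it. They were chosen by name, as every gene of the array whose symbol begins with Psma, Psmb, Psmc, Psmd or Psme followed by a number, without the inducible immunoproteasome subunits Psmb8, Psmb9 and Psmb10. This gave 39 genes of the 18193 with a probe set of their own, read by 84 of 45101 probe sets. Each gene was represented by its brightest probe set over the 12 arrays. They comprised 8 alpha subunits and 8 beta subunits of the core, 6 ATPases and 11 non-ATPases of the regulatory particle, 3 assembly chaperones that carry Psmd symbols (Psmd5, Psmd9 and Psmd10) and 3 activator caps (Psme1, Psme3 and Psme4). Psme2 shares its probe set with a related gene and was therefore left out.

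The proteasome is the barrel-shaped protease that breaks down proteins marked with ubiquitin, and in the heart it removes damaged and surplus contractile and other proteins. Its core is built of rings of alpha subunits, which form the gate, around rings of beta subunits, of which Psmb5, Psmb6 and Psmb7 cut the protein chain. The regulatory particle recognises ubiquitin, removes it and unfolds the substrate with its ATPases, and the Psme proteins are alternative caps that open the core without it. The transcription factor encoded by Nfe2l1 is known to raise proteasome genes together when proteasome activity is short.

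The RNA came from whole hearts of mice of the outbred CD1 stock and was read on Affymetrix 3′ arrays. The mice either expressed DN-MCU, a dominant-negative form of the pore-forming subunit of the mitochondrial calcium uniporter, or were their wild-type (WT) littermates. The 4 groups were WT adults and DN-MCU adults of 42 days, all labelled male, and WT neonates and DN-MCU neonates of 1 day, of unknown sex, with 3 arrays each. Which promoter drives the transgene was not given in the sources used here. Replicates are labelled as biological, so that the p values below measure the spread between hearts, and 3 per group limit their precision. The main fit used 1 spread per probe set for all 4 groups, although the groups differed in spread. Over all genes the median SD ran from 0.126 in WT neonates to 0.399 in DN-MCU adults. The adult p values thus draw on the tighter neonatal arrays, and the neonatal ones on the wider adult arrays.

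All values are log2 signals as deposited. A level of 1 probe set is not set against that of another, because probes differ in brightness. Of the 39 genes, 38 passed the filter on dim probe sets, which asks that the third highest of the 12 values exceed 3.35. The exception was Psmb11, a beta subunit known from the thymus, which lay between 2.50 and 2.64 on all 12 arrays and was not tested. Psma8, an alpha subunit known from the testis, passed but was dim, with a mean of 3.51 in WT adults. A gene passed the test at a limma adjusted p under 0.05, adjusted over all 24176 probe sets that passed the filter.

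Of the 2 Mcu probe sets, the one that was dim in WT hearts separated the genotypes, with WT arrays at 4.55 or less and DN-MCU arrays at 8.44 or more. The other, at 7.39 to 8.18 on all arrays, did not. The 8 cardiomyocyte markers averaged 14.87 to 15.34 on every array. The macrophage and leukocyte markers (7 of 7 measured) averaged 9.0 to 9.76 in adults and 6.94 to 7.40 in neonates. Proliferation markers (5 of 6 measured) averaged 2.94 to 6.05 in adults and 9.23 to 9.61 in neonates. In whole hearts, fewer cells of a type and less RNA per cell cannot be told apart.

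The stretches of DNA in front of 3 genes are shown because the results below turn on these genes: Psma5 passed in both comparisons in which any proteasome gene passed, Psmb5 is a catalytic subunit whose promoter held an element studied for control of proteasome genes, and Psme4 had the largest difference of any member. Each sequence is the 100 bases before the gene's start in RefSeq (GRCm38.p6), written 5′ to 3′ on the gene's strand. Psma5 lies at chr3:108256826-108256925 on the + strand, Psmb5 at chr14:54617996-54618095 on the - strand and Psme4 at chr11:30771675-30771774 on the + strand. Capitals mark a match to TGACNNNGC, the core of the antioxidant response element.
Psma5: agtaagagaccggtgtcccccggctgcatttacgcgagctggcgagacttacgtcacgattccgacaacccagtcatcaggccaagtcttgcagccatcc
Psmb5: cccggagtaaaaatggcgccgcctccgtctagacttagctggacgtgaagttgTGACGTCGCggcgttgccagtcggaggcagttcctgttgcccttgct
Psme4: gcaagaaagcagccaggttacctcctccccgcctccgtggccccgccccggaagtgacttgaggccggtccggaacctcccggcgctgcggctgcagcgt

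The match in Psmb5 ran from 47 to 39 bases before the start. Both strands of the 250 bases before each start were searched, and 32 of the 39 members had an entry in the promoter table. TGACNNNGC was found in 5 of these 32 (15.6%), namely Psmb5, Psmb6, Psmc6, Psmd12 and Psmd9, against 11.5% of the 27025 genes in the table. TGATGNAAN, the composite element bound by ATF4, was found in 1 member (3.12%), Psmd13, against 3.89% of all genes. These shares are counts of letters and do not show binding.

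Before the comparisons, 2 adult arrays, DN-MCU adult 3 and WT adult 1, were set against the rest of their groups. They are called the arrays that stood apart, and departures of the other adult arrays were not computed. DN-MCU adult 3 differed from the mean of the other DN-MCU adults by more than 0.5 in 19 of the 38 genes, and WT adult 1 from the other WT adults in 6. The departures went the same way in 30 of the 38 genes and correlated at r = 0.71 over these genes, against 0.58 over all 11807 genes, as a description of 1 array against 1 other. For the counts of 19, 6 and 30, the shares over all genes are not given here. The largest was in Psmc6, an ATPase of the regulatory ring. It measured 9.73 in DN-MCU adult 3 against 11.87 and 11.78 in the other DN-MCU adults, and 10.20 in WT adult 1 against 11.50 and 11.58 in the other WT adults. In DN-MCU adult 3, Psmd14 and Psma4 were also low (departures of -0.91 and -0.79), while Psmd9, Psmd3 and Psme1 were high (1.23, 0.97 and 0.96).

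**Figure D1:**
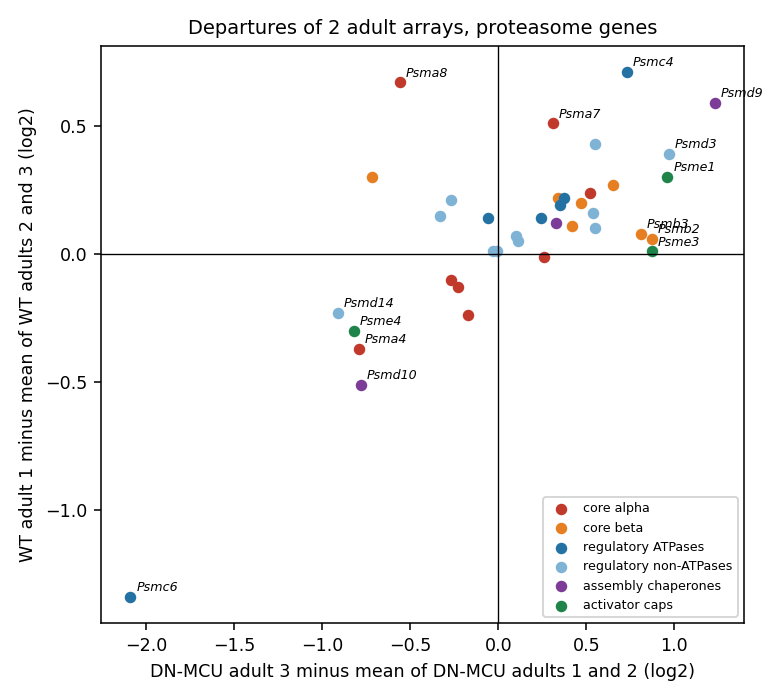
Departure of each of 38 proteasome genes in 2 adult arrays, in log2 units: DN-MCU adult 3 minus the mean of DN-MCU adults 1 and 2 on the horizontal axis, WT adult 1 minus the mean of WT adults 2 and 3 on the vertical axis. Each point is 1 gene, coloured by role, and 30 of the 38 lie on the same side of 0 on both axes, with Psmc6 farthest out at -2.09 and -1.34.

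These arrays also differed in what else they held. The mean of the control probe sets was 9.82 in DN-MCU adult 3 and 8.56 to 8.83 in the remaining adult arrays. The adipocyte markers (3 measured) of DN-MCU adult 3 averaged 8.41 against 10.37 and 11.37 in the other DN-MCU adults. WT adult 1 had epicardial and mesothelial markers (6 of 6 measured) at 7.04 against 4.90 and 5.36 in the other WT adults. The part of these differences in the departures of the proteasome genes was not tested. The median SD of the proteasome genes was below that of all genes in each group. In adults it was 0.134 for WT and 0.316 for DN-MCU hearts, against 0.206 and 0.399 over all genes. In neonates it was 0.0733 for WT and 0.108 for DN-MCU hearts, against 0.126 and 0.138.

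The first comparison asked what inhibition of the uniporter did to these genes in the adult heart. The answer was small: 2 of 38 genes rose, Psma5 and Psmb1, none fell and 36 did not pass. That is 5.26% of the members, close to the 4.77% of all probe sets called in this comparison (2.82% higher and 1.95% lower), so the count is no result about the proteasome. The differences of 28 genes (73.7%) were above 0 and those of 10 below, where 50.3% of all genes lay above 0. Their median was 0.17, where the median of all genes was 0.00. At an unadjusted p under 0.05 there were 9 members (23.7%), against 19.5% of all genes.

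Psma5, an alpha subunit of the core, measured 12.002, 12.021 and 11.996 in the WT adults and 12.44, 12.37 and 12.66 in the DN-MCU adults. The groups did not overlap, and the WT values were almost identical. The difference was 0.48 (SE 0.12), a 1.40-fold rise (limma adjusted p = 0.0424). Its second probe set gave 0.76 (SE 0.14, limma adjusted p = 0.0129). Both groups of neonates lay near the DN-MCU adults, at 12.43 ± 0.04 in WT and 12.37 ± 0.04 in DN-MCU hearts (SD, n = 3).

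Psmb1, a structural beta subunit, measured 12.03, 11.87 and 11.96 in the WT adults and 12.62, 12.34 and 12.91 in the DN-MCU adults. Here too every DN-MCU adult lay above every WT adult, and DN-MCU adult 3 was the highest. The difference was 0.67 (SE 0.17), a 1.59-fold rise (limma adjusted p = 0.0496). Neither call was firm. When only the 6 adult arrays were fitted, the adjusted p was 0.365 for Psma5 and 0.306 for Psmb1 (limma), where 0.463% of all probe sets passed. With a block for the neonatal replicate numbers the values were 0.118 and 0.0875. Without both arrays that stood apart, Psma5 passed at 0.40 (limma adjusted p = 0.0291) and Psmb1 gave 0.56 (limma adjusted p = 0.0524).

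The catalytic beta subunits gave no common picture in adults. Psmb5, the chymotrypsin-like subunit, measured 12.58, 12.49 and 12.28 in WT and 12.93, 12.51 and 13.19 in DN-MCU adults. The groups overlapped, and the difference of 0.43 (SE 0.17) did not pass (limma adjusted p = 0.222). Psmb6, the caspase-like subunit, measured 12.22, 11.97 and 11.94 in WT and 12.07, 11.94 and 12.65 in DN-MCU adults, a difference of 0.17 (SE 0.18, limma adjusted p = 0.682). Only DN-MCU adult 3 lay above the WT range, and without it the difference was -0.04. Psmb7, the trypsin-like subunit, had the opposite sign. It measured 11.21, 10.79 and 11.03 in WT and 10.70, 10.69 and 9.97 in DN-MCU adults, groups that did not overlap. The difference was -0.56 (SE 0.26) and did not pass (limma adjusted p = 0.287). It was -0.32 without DN-MCU adult 3 and -0.22 without both arrays that stood apart.

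**Figure D2:**
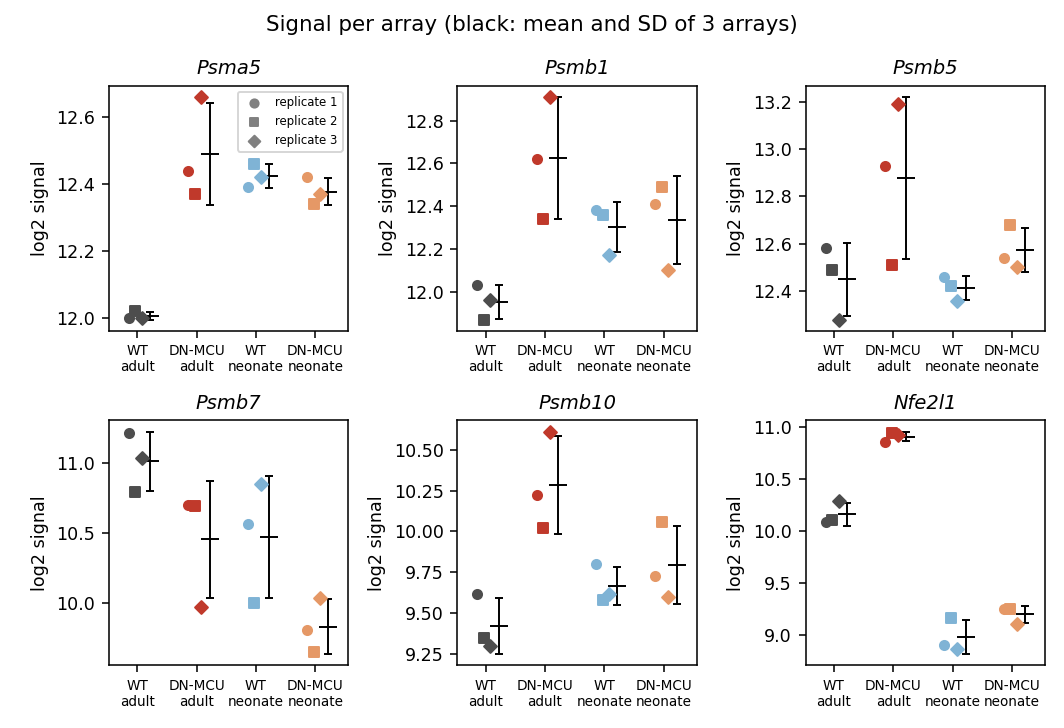
Log2 signal of 6 genes on each of the 12 arrays, by group, with the replicate number given by the shape of the point and the mean and SD of 3 arrays in black. Psma5, Psmb1, Psmb10 and Nfe2l1 show every DN-MCU adult above every WT adult, and Psmb5 overlaps in adults. Psmb7 has a lower mean in the DN-MCU hearts of both ages, with overlap in neonates, and passed at neither age.

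Among the regulatory particle genes 0 of 17 passed in adults. All 6 ATPases had differences above 0, from 0.03 to 0.29 with a median of 0.24. The sign of Psmc6 (0.03, SE 0.52) rested on arrays that cancel, with -0.41 without WT adult 1 and 0.73 without DN-MCU adult 3. The ATPase gene Psmc4 measured 12.20, 11.49 and 11.49 in WT and 11.64, 11.79 and 12.45 in DN-MCU adults, a difference of 0.24 (SE 0.24, limma adjusted p = 0.678). In both groups the high value was that of the array that stood apart, and without DN-MCU adult 3 the difference was -0.01. Psmc2 was the one ATPase with no overlap between the groups, at 12.77, 12.67 and 12.60 in WT and 12.91, 13.02 and 12.90 in DN-MCU adults. Its difference was 0.26 (SE 0.11, limma adjusted p = 0.236), and a dimmer probe set of the gene passed at 0.49 (SE 0.12, limma adjusted p = 0.0453).

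The 11 non-ATPases were split, 6 above 0 and 5 below, between -0.28 (Psmd6) and 0.52 (Psmd13). A second bright probe set of Psmd6 had the opposite sign (0.08, SE 0.13), as did a dim probe set of Psmd13 (-0.31, SE 0.24). Psmd4, a ubiquitin receptor, measured 11.28, 11.24 and 11.13 in WT and 11.64, 11.42 and 12.08 in DN-MCU adults. The groups did not overlap, and the difference of 0.50 (SE 0.17) did not pass (limma adjusted p = 0.142). Psmd14, the enzyme that cuts the ubiquitin chain off the substrate, measured 10.73, 10.97 and 10.93 in WT and 11.35, 11.29 and 10.41 in DN-MCU adults. Its difference of 0.14 (SE 0.22, limma adjusted p = 0.814) averages a high pair of arrays and a low one, again DN-MCU adult 3. The 3 assembly chaperones had differences of 0.30 to 0.32, and none passed. Single arrays set some of these values: Psmd9 gave -0.10 without DN-MCU adult 3 and 0.88 without DN-MCU adult 2 (limma adjusted p = 0.0401), and Psmd10 ranged from 0.13 to 0.56 over the adult arrays left out.

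The activator caps also disagreed among themselves in adults. Psme1, a subunit of the cap induced by interferon, measured 12.63, 12.40 and 12.24 in WT and 11.47, 11.78 and 12.59 in DN-MCU adults. The first pair of DN-MCU adults lay below the WT range and the third within it, and the difference of -0.48 (SE 0.24) did not pass (limma adjusted p = 0.343). A fit that left out DN-MCU adult 3 gave -0.80 and passed (limma adjusted p = 0.00972), and without both arrays that stood apart it was -0.69 (limma adjusted p = 0.0128).

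Psme3, the nuclear cap, measured 8.80, 8.81 and 8.78 in WT and 9.04, 9.09 and 9.93 in DN-MCU adults. All DN-MCU adults were higher, the third by the most, with a difference of 0.56 (SE 0.22, limma adjusted p = 0.217). A second, dimmer probe set of Psme3 had the opposite sign (-0.30). Psme4, the large single-chain cap, measured 12.98, 13.29 and 13.28 in WT and 13.03, 13.16 and 12.27 in DN-MCU adults. Its difference of -0.36 (SE 0.22, limma adjusted p = 0.44) came with overlapping groups. The 5 other probe sets of Psme4 were also below 0, and none passed. The largest differences, on dim probe sets, were -1.71 and -1.71 with groups that did not overlap (limma adjusted p = 0.0622 and 0.0605).

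The number of members that passed in adults moved with the arrays used. Without DN-MCU adult 2, 5 rose (Psma5, Psmb1, Psmb5, Psmd4 and Psmd9), where 4.70% of all probe sets were called higher. Without DN-MCU adult 3, Psma5 rose and Psme1 fell, against 4.43% and 4.72%. When DN-MCU adult 1 or any 1 of the WT adults was left out, none passed. Leaving out both arrays that stood apart, a choice made after the values were seen, gave 3 that rose (Psma5, Psma8 and Psmd13) and Psme1 as the 1 that fell, against 6.30% of all probe sets higher and 6.69% lower. Across members, DN-MCU arrays did not overlap WT arrays in 9 genes on the higher side and 1 on the lower (all probe sets: 8.70% and 8.46%).

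In neonates the question was whether the same genes were touched within a day of birth. None of the 38 passed, with a smallest limma adjusted p of 1, and only 4 of 24176 probe sets passed at all (0.0165%). The median difference was 0.08, against 0.03 over all genes. Of the members 30 lay above 0 (78.9%) and 8 below, where 59% of all genes lay above 0. All differences lay between -0.63 (Psmb7) and 0.26 (Psmd5, a chaperone of ATPase assembly). DN-MCU and WT arrays did not overlap in 6 genes on the higher side and 2 on the lower, Psmc2 and Psmd11, against 7.51% and 5.13% of all probe sets.

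Psmb7 was the single member at an unadjusted p under 0.05 in neonates (2.63%, against 2.41% of all genes), so that count is near the share of all genes. It measured 10.56, 9.997 and 10.85 in WT and 9.81, 9.65 and 10.04 in DN-MCU neonates. The groups met at the edge, where DN-MCU neonate 3 lay above WT neonate 2. The difference was -0.63 (SE 0.26; limma unadjusted p = 0.033, adjusted p = 1). Psmb5 measured 12.46, 12.42 and 12.36 in WT and 12.54, 12.68 and 12.50 in DN-MCU neonates, a difference of 0.16 (SE 0.17). Psmb6 gave 0.02 (SE 0.18).

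The regulatory particle and the caps also differed little between neonatal genotypes. Psmd4 gave 0.08 (SE 0.17), Psmd14 gave 0.06 (SE 0.22) and Psmc4 gave 0.15 (SE 0.24). Psme1 gave -0.03 (SE 0.24), Psme3 gave 0.09 (SE 0.22) and Psme4 gave 0.00 (SE 0.22). The limma adjusted p was 1 for each of these genes.

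**Figure D3:**
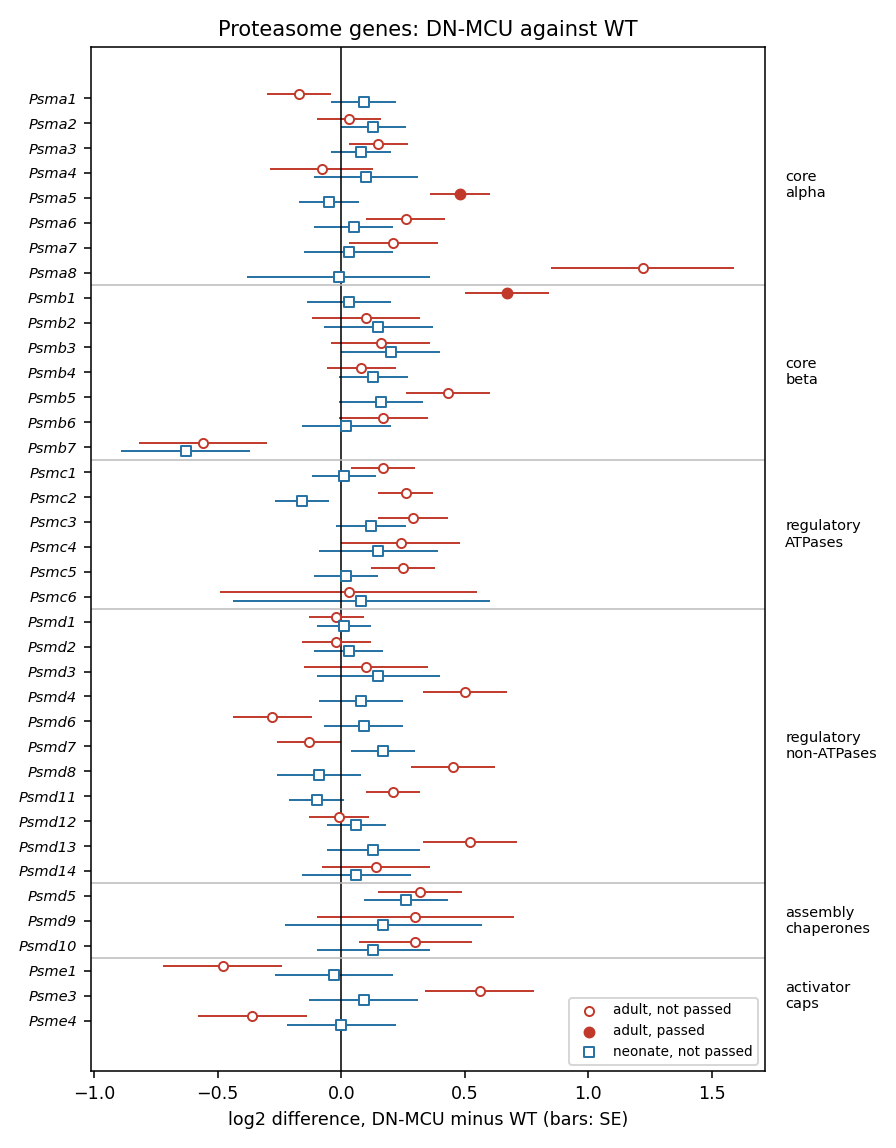
Log2 difference of DN-MCU minus WT hearts for 38 proteasome genes, grouped by role, in adults (circles) and neonates (squares), with the SE of the fit as bars. Filled symbols passed at a limma adjusted p under 0.05: only Psma5 and Psmb1, both in adults.

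Whether the difference between DN-MCU and WT hearts was itself different at the 2 ages was tested as an interaction. None of the 38 passed, where 0.786% of all probe sets did (190 of 24176). At an unadjusted p under 0.05 in limma there were 5 members (13.2%), against 9.82% of all genes. The smallest adjusted p was that of Psma5, at 0.54 (SE 0.17, limma adjusted p = 0.262). Psmb1 gave 0.64 (SE 0.24, limma adjusted p = 0.39). The rises of these genes in adults are therefore not shown to be particular to that age.

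The last comparison set WT neonates against WT adults. It uses the same WT adults as the first, so the values of both are given side by side and not related to each other. Of the 38 genes, 11 were higher in neonates, 3 were lower and 24 did not pass. That is 36.8%, beside 45.1% of all probe sets called (24.4% higher and 20.6% lower), and the median size of the difference was 0.406 where over all genes it was 0.584. The share of members that differed by 1.5-fold or more was 28.9%, against 50% of all genes. The ages did not overlap in 20 members on the higher side and 9 on the lower (all probe sets: 36.3% and 29.2%). The median difference was 0.22 for the members and 0.16 for all genes. That shift of all genes depends on the scaling and was 0.103 after quantile normalization and 0.291 after subtraction of array medians.

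All 8 alpha subunit genes, the dim Psma8 among them, had values above 0 (median 0.41), where 59.3% of all genes did. Of these, 5 rose (62.5%, beside 24.4% of all probe sets called higher): Psma1, Psma2, Psma3, Psma5 and Psma8. Psma1 measured 11.59, 11.79 and 11.86 in WT adults and 12.42, 12.50 and 12.50 in WT neonates. The groups were far apart relative to their spread, with a difference of 0.73 (SE 0.13, limma adjusted p = 0.00113). A dim second probe set of Psma1 went the other way (-2.23), as did a dim probe set of Psma3. Psma5 rose by 0.42 (SE 0.12, limma adjusted p = 0.0139). Psma8 passed at 1.19 (SE 0.37, limma adjusted p = 0.0225), but its WT adults, at 3.96, 2.70 and 3.87, lay around the filter level of 3.35, so the size is not well measured, and the call was lost without WT adult 2 or WT neonate 2.

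None of the 7 beta subunits tested passed with age, and their median was -0.05. Psmb5 gave -0.03 (SE 0.17, limma adjusted p = 0.896), a sign that turned to 0.10 after subtraction of array medians. Psmb6 gave 0.21 (SE 0.18, limma adjusted p = 0.372). Psmb7 gave -0.54 (SE 0.26, limma adjusted p = 0.111), with WT neonates of 9.997 to 10.85 that overlapped the WT adults. That the alpha and beta rings differ from each other was not tested.

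Of the ATPases, only Psmc4 rose, from 11.72 ± 0.41 in WT adults to 12.50 ± 0.09 in WT neonates (SD, n = 3), by 0.78 (SE 0.24, limma adjusted p = 0.0226). The adult SD came from WT adult 1, at 12.20 against 11.49 in both others. A second, dimmer probe set of Psmc4 gave 0.33 (SE 0.23) and did not pass (limma adjusted p = 0.267). Among the non-ATPases 3 rose and 2 fell. Psmd7, a scaffold partner of Psmd14, measured 10.19, 10.03 and 9.93 in WT adults and 10.67, 10.70 and 10.64 in WT neonates, a rise of 0.62 (SE 0.13, limma adjusted p = 0.00233), while a dim second probe set of the gene gave -0.62. Psmd3 rose by 0.88 (SE 0.25, limma adjusted p = 0.0166) and Psmd6 by 0.50 (SE 0.16, limma adjusted p = 0.0261). A second bright probe set of Psmd6 gave only 0.15 (SE 0.13) and did not pass (limma adjusted p = 0.381). Psmd14 gave 0.52 (SE 0.22) and did not pass (limma adjusted p = 0.0851).

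Psmd2, the large scaffold at the base that binds ubiquitin shuttles, was lower at birth. It measured 11.79, 11.81 and 11.64 in WT adults and 10.99, 10.62 and 10.96 in WT neonates. With no overlap, it fell by 0.89 (log2 -0.89, SE 0.14), which is 1.86-fold (limma adjusted p = 0.000474). Psmd12, a subunit of the lid, measured 11.53, 11.54 and 11.51 in WT adults and 11.13, 10.94 and 11.14 in WT neonates, a difference of -0.46 (SE 0.12, limma adjusted p = 0.0099). The ubiquitin receptor Psmd4 gave -0.42 (SE 0.17) and did not pass (limma adjusted p = 0.0688).

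The assembly chaperones were higher at birth in 2 of 3 cases. Psmd10, also known as gankyrin, measured 7.61, 8.18 and 8.06 in WT adults and 9.01, 8.81 and 8.89 in WT neonates, a rise of 0.95 (SE 0.23, limma adjusted p = 0.00594). Psmd5 measured 8.02, 8.08 and 7.73 in WT adults and 8.59, 8.91 and 8.47 in WT neonates, a rise of 0.71 (SE 0.17, limma adjusted p = 0.00606). Both genes separated the ages without overlap. Psmd9 gave 0.90 (SE 0.40) and did not pass (limma adjusted p = 0.0918).

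**Figure D4:**
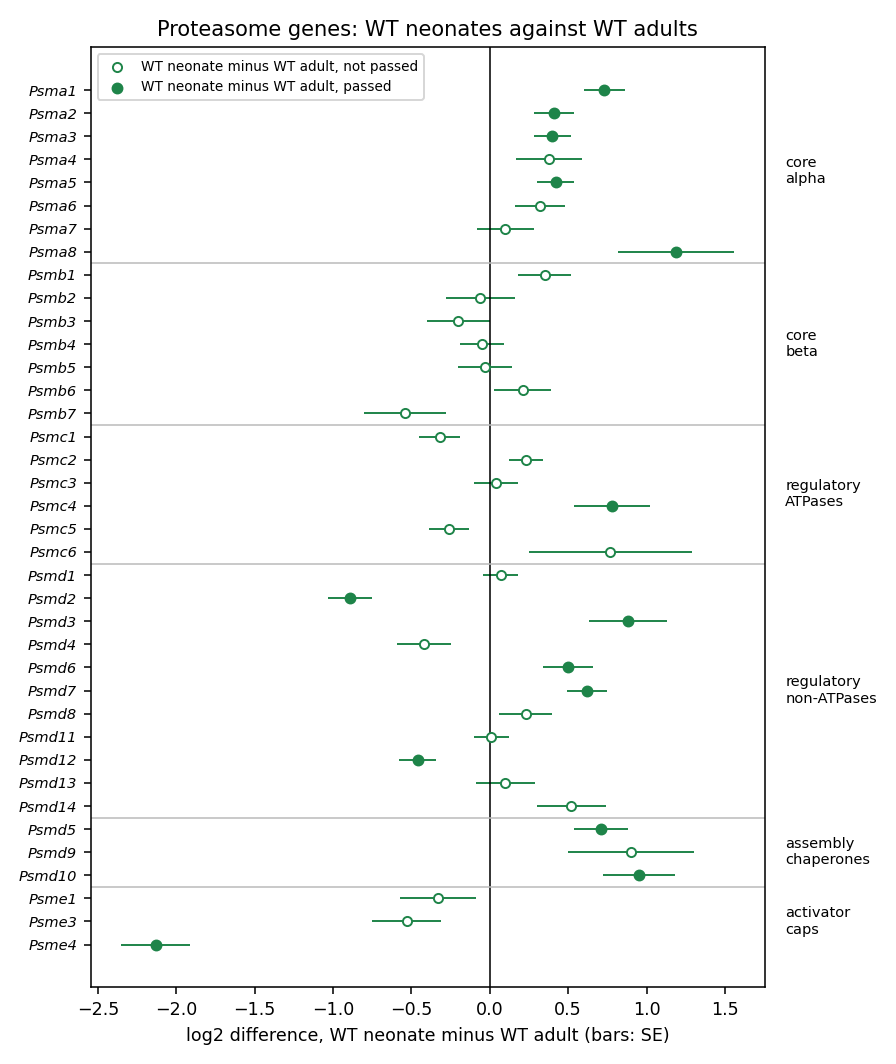
Log2 difference of WT neonates minus WT adults for 38 proteasome genes, grouped by role, with the SE of the fit as bars. Filled circles passed at a limma adjusted p under 0.05: 11 genes to the right of 0, 5 of them alpha subunits, and Psme4, Psmd2 and Psmd12 to the left.

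Psme4 had the largest difference of all members. The cap measured 12.98, 13.29 and 13.28 in WT adults and 11.17, 10.89 and 11.11 in WT neonates. No array of one age came near those of the other, and the difference of -2.13 (SE 0.22) is 4.37-fold (limma adjusted p = 2.69e-05). The next brightest probe sets of Psme4 gave -2.05 and -2.81 (limma adjusted p = 1.91e-05 and 2.11e-05). The remaining 3 were near background in neonates, so their lower values there, though they passed, add no measure of size. DN-MCU hearts had means of 12.82 ± 0.48 in adults and 11.06 ± 0.14 in neonates (SD, n = 3). The other caps had the same sign and did not pass, with -0.33 for Psme1 (SE 0.24, limma adjusted p = 0.291) and -0.53 for Psme3 (SE 0.22, limma adjusted p = 0.0752; a dimmer probe set gave 0.19).

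All 14 calls between the ages remained under quantile normalization, subtraction of array medians, array weights, a fit of the WT arrays alone and without both adult arrays that stood apart. The count was above 14 in each of these fits, from 15 under quantile normalization to 27 with array weights, and was 23 without both arrays. When 1 WT array at a time was left out, Psma1, Psma5, Psmd2, Psmd5, Psmd7, Psmd10, Psmd12 and Psme4 passed every time, and each other call was lost in at least 1 fit. With the replicate number as a block at both ages, 7 higher and 3 lower remained.

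**Figure D5:**
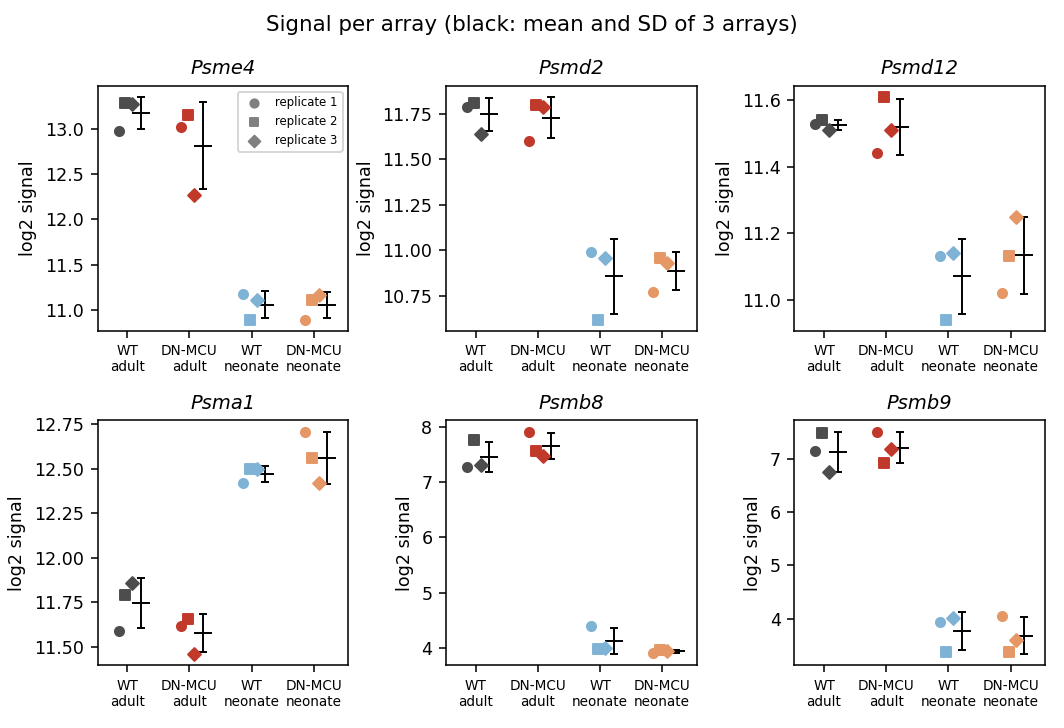
Log2 signal of 6 genes on each of the 12 arrays, by group, with the replicate number given by the shape of the point and the mean and SD of 3 arrays in black. Psme4, Psmd2, Psmd12, Psmb8 and Psmb9 were lower and Psma1 was higher in all neonates, of both genotypes, than in any adult.

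Around the proteasome, 5 lists of 40 measured genes were read from the same fits: immunoproteasome subunits, assembly factors, transcriptional control, ubiquitin and its shuttles, and muscle ubiquitin ligases. In adults 3 of 40 rose in DN-MCU hearts (7.5%, beside 4.77% of all probe sets called), none fell, and the median was 0.13. In neonates none passed. Between the ages 4 were higher and 10 lower in WT neonates (35%, beside 45.1% of all probe sets).

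The gene with the smallest p among these in adults was Nfe2l1, the transcription factor named above. It measured 10.09, 10.11 and 10.29 in WT and 10.86, 10.95 and 10.93 in DN-MCU adults. Every DN-MCU adult was higher, the arrays of each group lay close together, and the array that stood apart was no exception. The difference was 0.75 (SE 0.13), or 1.69-fold (limma adjusted p = 0.00729). It passed with each adult array left out in turn and gave 0.71 without both arrays that stood apart (limma adjusted p = 0.0116), but not when the adult arrays were fitted alone (limma adjusted p = 0.137) or with a block at both ages (limma adjusted p = 0.0561). In neonates it gave 0.22 (SE 0.13, limma adjusted p = 1), and the difference between the effects did not pass (limma adjusted p = 0.328).

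The related factor Nfe2l2 gave 0.20 (SE 0.13, limma adjusted p = 0.475) in adults. Between WT hearts of the 2 ages both factors were lower in neonates, Nfe2l1 at -1.18 (SE 0.13, limma adjusted p = 3.73e-05) and Nfe2l2 at -0.68 (SE 0.13, limma adjusted p = 0.00138). A dim second probe set of Nfe2l2 had the opposite sign (1.54). Mafg and Mafk, small partners of both factors, were also lower in WT neonates (-0.46 and -0.74, limma adjusted p = 0.0387 and 0.0256).

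Psmb10, the inducible counterpart of Psmb7, rose in DN-MCU adults. It measured 9.62, 9.35 and 9.30 in WT and 10.22, 10.02 and 10.61 in DN-MCU adults, a difference of 0.86 (SE 0.19), or 1.81-fold (limma adjusted p = 0.0252). The groups did not overlap, and the call was lost when the adult arrays were fitted alone (limma adjusted p = 0.225) or with the neonatal block (limma adjusted p = 0.0697). It was also lost without WT adult 2 (limma adjusted p = 0.0963), WT adult 3 (0.104) or DN-MCU adult 1 (0.0546), while the difference stayed between 0.69 and 0.99. Psmb8 and Psmb9, the counterparts of Psmb5 and Psmb6, gave 0.20 (SE 0.18, limma adjusted p = 0.64) and 0.08 (SE 0.26, limma adjusted p = 0.926).

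With age the immunoproteasome genes divided. Psmb8 measured 7.28, 7.77 and 7.31 in WT adults and 4.40, 3.98 and 3.99 in WT neonates, a difference of -3.34 (SE 0.18, limma adjusted p = 3.37e-07). A second, dim probe set of Psmb8, at 3.54 in WT adults, gave -0.22 and did not pass. Psmb9 measured 7.14, 7.49 and 6.75 in WT adults and 3.94, 3.37 and 4.01 in WT neonates, a difference of -3.36 (SE 0.26, limma adjusted p = 3.84e-06). The neonatal values of both lay close to the filter level of 3.35, near background, so no fold is given. Psmb10 gave 0.24 (SE 0.19, limma adjusted p = 0.313). The macrophage and leukocyte markers given above were lower in neonates too, and their part in these differences was not tested.

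Among assembly factors none passed in adults, and Pomp, the maturation factor of the core, gave -0.07 (SE 0.19, limma adjusted p = 0.909) there and -0.13 (limma adjusted p = 0.616) with age. The core chaperones Psmg4 and Psmg3 were higher in WT neonates (1.26 and 1.02, limma adjusted p = 0.000974 and 0.0416). Ecpas, a scaffold that binds proteasomes, was lower (-1.32, limma adjusted p = 9.62e-05), with 2 of its 3 other probe sets of opposite sign.

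Sqstm1, which encodes the shuttle and autophagy receptor p62, measured 11.94, 11.91 and 11.91 in WT and 12.51, 12.32 and 12.53 in DN-MCU adults. The groups did not overlap, and it rose by 0.53 (SE 0.13, limma adjusted p = 0.043), a call lost when the adults were fitted alone (limma adjusted p = 0.286) or with the neonatal block (limma adjusted p = 0.084). It was also lost without any 1 of the WT adults or DN-MCU adult 1, with adjusted p values of 0.071 to 0.137 (limma). In WT neonates it was lower than in WT adults by 6.09-fold (log2 -2.61, SE 0.13, limma adjusted p = 1.7e-07). The shuttle gene Ubqln2 and the cofactor gene Nploc4 were higher in WT neonates (0.62 and 0.73, limma adjusted p = 0.00718 and 0.0453).

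Of 9 muscle ubiquitin ligases none passed in adults. Trim63, which encodes MuRF1, measured 12.88, 12.85 and 12.71 in WT and 12.39, 12.47 and 12.44 in DN-MCU adults. The DN-MCU values were lower without overlap, and the difference of -0.38 (SE 0.12) did not pass (limma adjusted p = 0.122), though it passed when no filter on dim probe sets was applied. Fbxo32, which encodes atrogin-1, gave 0.16 (SE 0.22, limma adjusted p = 0.788). With age Fbxo32 was lower in WT neonates by 4-fold (log2 -2.00, SE 0.22, limma adjusted p = 4.45e-05), Trim54 by 64.1-fold (log2 -6.00, SE 0.45, limma adjusted p = 2.81e-06), and Trim63 gave 0.01 (SE 0.12, limma adjusted p = 0.965).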

How the data were processed

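RNA of whole hearts (500 ng of total RNA per sample, labelled as biotinylated cRNA) was measured on 12 arrays. The authors deposited 1 table of log2 signals, whose medians and quartiles are close across arrays. The log2 scale was read from the values; their normalization was not given in the sources used here. Submitters' processing notes name Partek, without a version or role. Here 64 control probe sets were removed. Of the rest, 34945 had 1 gene symbol in the platform annotation, 932 several and 9160 none. The filter left 24176 of 45101 probe sets. The 4 group means were then fitted over the 12 arrays in limma 3.58.1 (R 4.3.3), with Benjamini-Hochberg adjustment over all kept probe sets, and the fit was tested on simulated data. SE comes from the fit and SD from the arrays. Named members follow a rule: the catalytic subunits, Psmd4, Psmd14, Psmc4 and the caps always, and otherwise the smallest p values among those that passed. Psmc2, Psmd9, Psmd11 and Psmd13 and a few others were named after their values were seen. The members, lists and tests were chosen with earlier results of these data known.

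To see whether replicate numbers pair the arrays, deviations of same-numbered arrays from their group means were correlated. Neonates gave 0.133, 0.223 and 0.283, and were taken to pair. Adults gave -0.381, 0.41 and -0.428, and were not. The main fit nevertheless had no block for replicate numbers, and its p values leave the neonatal pairing out. With a block for neonates only, 0 members passed in adults and 14 between the ages. What the numbers stand for was not given.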

Additional observations from a re-analysis of the deposited data

Results flagged for a closer look

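Psmc2 and Psmd11 were the members in which all 3 DN-MCU arrays lay above all 3 WT arrays in adults and below all 3 WT arrays in neonates. For Psmc2 the differences were 0.26 in adults and -0.16 in neonates, so that the effects differed by 0.42 (limma adjusted p = 0.379). For Psmd11 they were 0.21 and -0.10, so that the effects differed by 0.31 (limma adjusted p = 0.602). A second probe set of Psmc2 gave 0.49 in adults and -0.10 in neonates. Of the 3 other probe sets of Psmd11, 1 had the opposite sign in neonates (0.19, SE 0.23). On all 3 the groups overlapped at both ages, with adult differences of 0.09 (SE 0.12), 0.32 (SE 0.23) and 0.03 (SE 0.12). The pattern of Psmd11 was thus seen on its brightest probe set only. The share of all probe sets with such a pattern is not given here. In neither gene did the test of the difference pass.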

How the results depend on the processing

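In adults, the 2 members that rose became 0 under quantile normalization, with the adult arrays fitted alone, and with the replicate block at both ages or in neonates only. Leaving out 1 adult array at a time gave 0 to 5 that rose and 0 to 1 that fell. Array weights, and the removal of both arrays that stood apart (added after the values were seen), each gave 1 that fell, Psme1. Between the ages, 11 were higher and 3 lower in the main fit. With the WT arrays fitted alone 19 passed, 5 of them lower, and all 14 calls of the main fit were kept. Array weights gave 19 higher and 8 lower, and the replicate block at both ages 7 higher and 3 lower. The second brightest probe set of each gene gave 6 higher and 5 lower. Without both arrays that stood apart there were 18 higher and 5 lower. Leaving out 1 array at a time gave 7 to 9 higher and 3 lower. The block changed no neonatal or interaction count of members. In neonates and for the difference of effects, 0 members passed in every alternative tried, and with array weights 95 probe sets (0.393%) passed in neonates. No filter, a stricter filter (7.25) and leaving out cross-matching probe sets moved no count of members by over 1.5 times. With no filter, Trim63 passed in adults (-0.38). Of the 4 neonatal calls, 75% were higher, against 50% after quantile normalization and 100% after subtraction of medians.

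Some signs turned, for values that did not pass in the report's fit or are given as passing. In adults, leaving out 1 array at a time gave -0.11 to 0.26 for Psmb9, -0.26 to 0.07 for Pomp, -0.02 to 0.44 for Psmd14, -0.04 to 0.32 for Psmb6, -0.01 to 0.47 for Psmc4, -0.41 to 0.73 for Psmc6 and -0.10 to 0.88 for Psmd9, and the second probe set gave -0.30 for Psme3, -0.02 for Psmb8 and -0.03 for Fbxo32. Between the ages, Trim63 gave -0.02 after quantile normalization and -0.04 to 0.04 without 1 array, Psmb5 gave 0.10 after subtraction of medians, -0.12 to 0.03 without 1 array and 0.03 without both arrays that stood apart, and Pomp gave 0.00 after subtraction of medians and -0.32 to 0.01 without 1 array. The second probe set gave 0.19 for Psme3 and -0.62 for Psmd7, and those of Psma1 (-2.23, limma adjusted p = 8.91e-05) and Nfe2l2 (1.54, limma adjusted p = 0.00333) passed. The causes were not tested.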
